A study of Mus musculus with 17 samples.

Results

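The genes described here were 33 that encode enzymes, carriers and membrane proteins of the lysosome. They comprised 11 peptidases, 8 glycosidases, 4 lipid hydrolases, 3 carriers or precursor proteins, 6 membrane proteins and the transcription factor Tfeb. They were chosen by symbol, matched to Ensembl identifiers through GENCODE M21, and all 33 were found among the 46073 genes of the deposited files. Polyadenylated RNA of frontal cortex from male mice of the FVB/N strain had been sequenced. Control mice (Ct, n = 6) carried only the CamK driver, named after a kinase whose promoter is active in excitatory forebrain neurons. Double transgenic mice (dTg, replicates 2 to 7, n = 6) carried the driver and a transgene for the microRNA miR-211, and the third group (dTgDox, n = 3) had the same dTg-211 genotype and had received doxycycline for 4 days. All these mice carried the driver. No control mice were given doxycycline, so the drug itself and any change it makes in miR-211 cannot be told apart. Tissue markers also differed in dTgDox, as given below, so tissue content and treatment cannot be told apart there either. Neither ages nor the number of mice behind a library were stated in the sources. The p-values therefore measure the spread between libraries. A common spread per gene was fitted and taken as equal in all groups, although that within dTgDox (n = 3) was unlike the others in some genes. The file labelled dTg replicate 1 held the same values as the only file labelled as carrying PTRE-miR-211 without CamK, for all 46073 genes, so that library was kept out of every group and is given apart.

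Lysosomes are acidic compartments in which proteins, glycans and lipids from endocytosis, phagocytosis and autophagy are broken down. Most of their soluble enzymes are made as inactive precursors and are carried from the Golgi by mannose 6-phosphate receptors, while heavily glycosylated proteins such as Lamp1 and Lamp2 form the lining of the membrane. Lysosomes are present in all cell types of the brain, and loss of many of these genes causes neuronal storage disease. Microglia, the resident phagocytes of the brain, hold large amounts of cathepsins and raise some of them near amyloid plaques. The question asked of these libraries was whether the lysosomal genes followed the rise of App, the gene of the amyloid precursor protein, and of microglial genes in dTgDox.

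Many lysosomal genes carry a palindromic E-box in their promoters to which TFEB, the product of Tfeb, is known to bind. The motif was searched as the core CACGTG, as TCACGTGA, and as the latter with G before and C after it. Each form holds the one before and reads the same on both strands. The search covered RefSeq windows from 250 bases before to 50 bases after a transcript start on GRCm38.p6. A window was found for 29 of the 33 genes. Shares are of genes with the motif in any of their windows, beside the same share of all 27025 genes with a window. The longest form lay in 1 of the 29, Cln3, which is 3.45% against 0.37% of all genes. The 8-base form lay in 5, which is 17.2% against 1.12%, and the 6-base core in 11, which is 37.9% against 8.09%. Over single windows the shares were 0.326%, 0.975% and 7.15% of 32817. The 5 promoters with the 8-base form, on the strand of the gene and with 20 bases on either side of the motif (in capitals), are those whose levels are set beside the motif further on.
Ctsd, chr7:142387899-142387946, minus strand: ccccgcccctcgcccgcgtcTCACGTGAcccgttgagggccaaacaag
Mcoln1, chr8:3500453-3500500, plus strand: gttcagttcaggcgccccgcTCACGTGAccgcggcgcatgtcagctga
Ctsa, chr2:164833740-164833787, plus strand: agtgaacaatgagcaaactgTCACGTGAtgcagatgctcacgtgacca
Gla, chrX:134601206-134601253, minus strand: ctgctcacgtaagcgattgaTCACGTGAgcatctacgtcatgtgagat
Cln3, chr7:126583331-126583378, minus strand: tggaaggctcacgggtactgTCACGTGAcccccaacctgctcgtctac
The motif began 99 bases before the transcript start in Ctsd, 46 before it in Mcoln1, 13 in Ctsa, 228 in Gla and 122 in Cln3. Ctsa and Gla each held a further copy of the 8-base form in the window. A match describes letters and shows no binding.

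Depth was similar across libraries. An estimated 19.4 to 26.7 M reads lay behind each, 15762 to 16085 genes per library reached 1 FPKM (fragments per kilobase, a level corrected for transcript length and for the number of mapped reads), and the lysosomal genes were read from an estimated 278 reads (Gla) or more in the library with the fewest. Cell type markers were not even across the groups. The 12 genes of hippocampal neurons summed to 315 to 363 FPKM in dTgDox against 98.8 to 121 in Ct and dTg. Of the 12, 10 rose against dTg (83.3%, beside 9.65% of all genes tested). The 8 oligodendrocyte genes summed to 2735 to 4110 FPKM against 976 to 2670, with none at 0. Of the 8, 1 rose (12.5%), near the 9.65% of all genes. Of 8 general neuronal genes 3 fell (37.5%, beside 9.22% of all genes) and 1 rose (12.5%, beside 9.65%). They summed to 2331 to 2540 FPKM in dTgDox against 2676 to 3386. The 6 choroid plexus genes summed to 27.2 to 1980 FPKM in dTgDox against 2.13 to 128. Of these 1 rose (16.7%, beside 9.65% of all genes), and all 6 differences lay above 0 (median 1.41). The 8 striatal genes summed to 80.8 to 119 FPKM against 106 to 911, and the 8 olfactory bulb genes to 4.34 to 6.25 against 4.38 to 242. None of these 16 passed limma, beside 18.9% of all genes. At an unadjusted p under 0.05 were 2 striatal and 0 olfactory bulb genes, beside 32% of all genes. All 16 differences lay below 0 (medians -1.17 and -0.80). The part of tissue content in the results below was not tested. In whole tissue, fewer cells of a type and less RNA per cell cannot be told apart.

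Levels of the 33 genes spanned a wide range. Psap, the precursor of the saposins that help enzymes degrade sphingolipids, was the highest at 613 ± 31.0 FPKM (SD, n = 6) in Ct. It was followed by Ctsd, the aspartic protease cathepsin D, at 173 ± 5.04, Lamp1, an abundant glycoprotein of the membrane, at 132 ± 3.88, and Ctsb, the cysteine protease cathepsin B, at 120 ± 7.10. The Ct ranges of Lamp1 (126 to 136) and Ctsb (112 to 128) overlapped, whereas those of Psap and Ctsd lay apart from each other and from Lamp1. The lowest 3 were Tfeb at 4.05 ± 0.776, Manba, the beta-mannosidase, at 4.13 ± 0.574, and Ctsc, the dipeptidyl peptidase cathepsin C, at 3.74 ± 0.348, and these did not differ beyond their spread. Together the 33 genes summed to 1780 to 1901 FPKM in Ct, 1757 to 1934 in dTg, and 2098, 1796 and 1889 in dTgDox replicates 1, 2 and 3. Only dTgDox replicate 1 lay above the other groups in this sum.

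No lysosomal gene passed the test for the transgene without doxycycline. In dTg against Ct 0 of the 33 passed limma, with 0 at an unadjusted p under 0.05, beside 0% of the 19064 genes tested (0 genes adjusted, 607 or 3.18% unadjusted). The median difference of the 33 was 0.01 on the log2 scale and 19 lay above 0, beside 48% of all genes. The 95% intervals of single genes reached from -0.49 for Gla to 0.44 for Ctsh, and differences inside such intervals could not be told from 0. An 8-base match to the seed of miR-211-5p, the strongest kind of microRNA site, lay in the longest annotated 3'UTR of 3 of the 33, Lamp1, Ctsb and Tpp1. That is 9.09% against 7.54% of 14374 genes. The microRNA (seed, bases 2 to 8, in capitals) and its 3 matches (in capitals, 10 bases either side) are set out to show what was searched.
mmu-miR-211-5p: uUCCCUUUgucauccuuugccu
Lamp1: taagccttacAAAGGGAAtctctggtcc
Ctsb: agtacagttcAAAGGGAAcagggagcct
Tpp1: ccctgtactaAAAGGGAAggctcagttt
In dTg minus Ct, Lamp1 differed by -0.02, Ctsb by -0.04 and Tpp1, a serine protease that removes tripeptides, by 0.01, each with a limma adjusted p of 1.0.

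A minority of the 33 genes moved in the group given doxycycline. In dTgDox against dTg 7 rose and 1 fell, which is 24.2% of the 33 beside 18.9% of all genes tested. By direction, 21.2% of the 33 rose beside 9.65% of all genes, and 3.03% fell beside 9.22%. The genes that rose were the cathepsins Ctsd, Ctsz and Ctsc, the hexosaminidase subunit Hexa, the sterol carrier Npc2 and the membrane proteins Lamp2 and Scarb2, by 1.13-fold to 1.59-fold in mean FPKM. The gene that fell was Psap, to 0.880 of the dTg mean. The other 25 did not pass, 12 of the 33 had an unadjusted p under 0.05 beside 32% of all genes, and the median of the 33 was 0.14 against -0.01 for all genes, with 20 of the 33 above 0 beside 49.1% of all genes. In dTgDox against Ct, which shares the dTgDox libraries, the count was again 7 higher and 1 lower, beside 19.7% of all genes (9.86% higher, 9.85% lower), and 20 lay above 0 beside 48.9%. They were the same 8 genes, with log2 differences from Ct of 0.61 for Ctsd, 0.61 for Ctsz, 0.59 for Ctsc, 0.41 for Hexa, 0.34 for Npc2, 0.24 for Lamp2, 0.18 for Scarb2 and -0.22 for Psap, and limma adjusted p from 0.0029 to 0.045. Genes called in both comparisons made up 7.97% of all genes for higher and 7.58% for lower. Against dTg 2 of the 8 passed without dTgDox replicate 1 (Ctsd and Ctsz), 3 without replicate 3 (Ctsd, Ctsz and Hexa), and 3 with dTg replicate 1 added to its group (Ctsd, Ctsz and Ctsc).

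**Figure D1:**
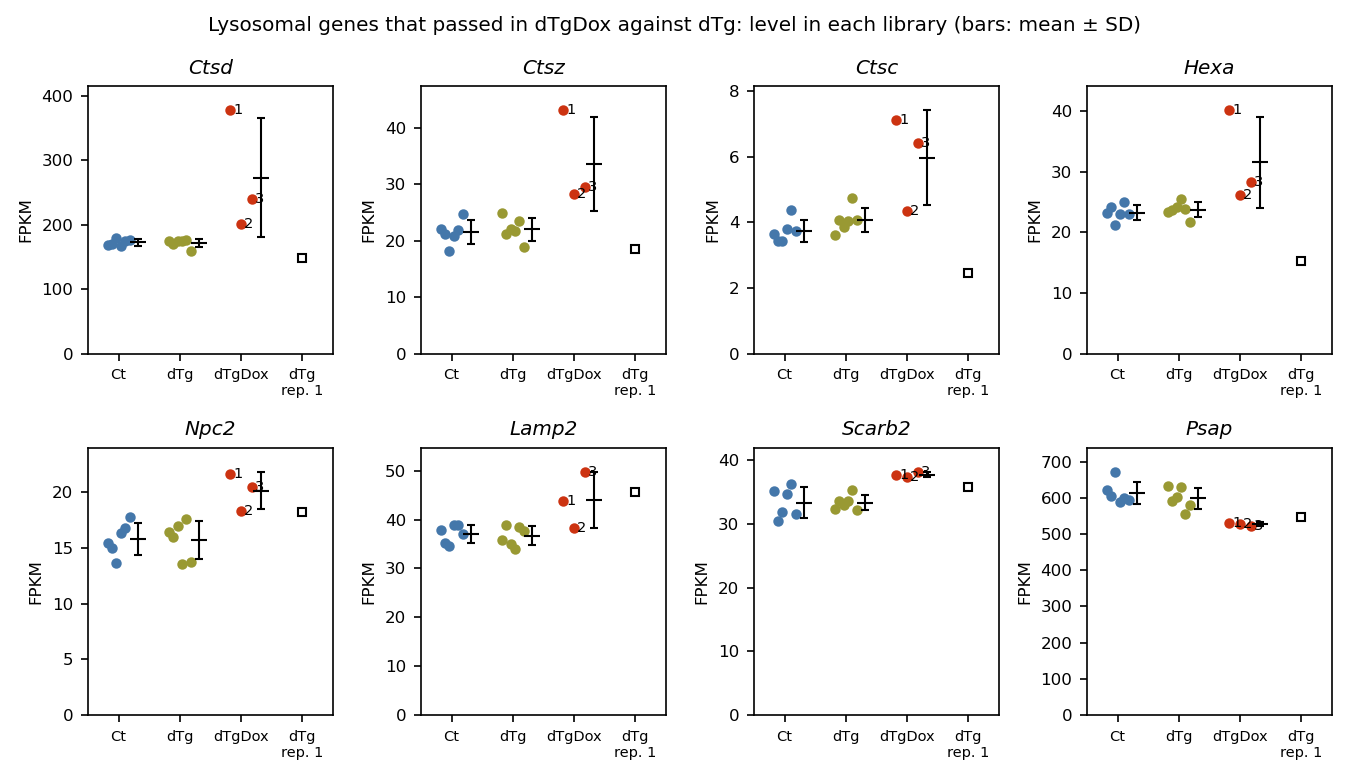
Level in FPKM (vertical axis, from 0) of the 8 lysosomal genes that passed in dTgDox against dTg, for each library by group, with the mean and SD beside each group. Numbers mark the dTgDox replicates and the open square is dTg replicate 1. Replicate 1 is the highest dTgDox library in Ctsd, Ctsz, Ctsc, Hexa and Npc2, and Psap is the panel in which dTgDox lies lowest.

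Among the peptidases 3 of 11 rose (27.3%, beside 9.65% of all genes) and 0 fell (beside 9.22%), with a median difference of 0.01. Ctsd, which starts the breakdown of many proteins in the lysosome (chromosome 7, 142375911 to 142388038), had a lowest, median and highest level of 167, 172 and 179 FPKM in Ct and 159, 175 and 176 in dTg. It had 378, 202 and 241 FPKM in dTgDox replicates 1, 2 and 3. All 3 libraries lay above all 12 others. The mean was 273 ± 92.5 (SD, n = 3) against 172 ± 6.44 (SD, n = 6) in dTg, a log2 difference of 0.62 (SE 0.13) with a limma adjusted p of 0.0038. The SD within dTgDox was many times that within dTg, and without replicate 1 the difference was 0.36 with an adjusted p of 0.0037. Ctsd was the 1 gene that both rose and had the 8-base E-box in its promoter.

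Ctsz, the carboxypeptidase cathepsin Z (chromosome 2, 174427493 to 174439039), ran from 18.2 to 24.8 FPKM in Ct (median 21.6) and from 18.9 to 24.9 in dTg (median 21.9). In dTgDox it had 43.1, 28.2 and 29.5 FPKM, again all above the 12 others. The log2 difference from dTg was 0.58 (SE 0.12) with a limma adjusted p of 0.0045, and without replicate 1 it was 0.39 with an adjusted p of 0.032. Ctsc, which activates serine proteases of immune cells (chromosome 7, 88278085 to 88310888), ran from 3.43 to 4.38 FPKM in Ct (median 3.70) and from 3.63 to 4.75 in dTg (median 4.05). In dTgDox it had 7.14, 4.36 and 6.43 FPKM. Replicates 1 and 3 lay above all 12 libraries and replicate 2 lay among them. Its difference was 0.48 (SE 0.12) with an adjusted p of 0.015, which became 0.35 and 0.11 without replicate 1, and the call was also lost without replicate 3.

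The other 8 peptidases did not pass. Ctss, the cysteine protease cathepsin S of phagocytes, had 97.6, 55.7 and 72.5 FPKM in dTgDox against 47.2 to 79.0 in the 12 other libraries, so that only replicate 1 stood above them. Its difference from dTg was 0.28 (95% interval -0.07 to 0.63, adjusted p 0.26). Ctsh, the aminopeptidase cathepsin H, had 16.7, 8.68 and 15.6 FPKM against 8.80 to 14.4, with 2 libraries above and 1 below all 12, and a difference of 0.15 (adjusted p 0.59). Without replicate 2 the difference of Ctsh was 0.44 with a limma adjusted p of 0.034, and the gene passed. Ctsb and Ctsl, 2 cysteine cathepsins that like Ctsd and Ctsz are known to rise in microglia near plaques, had differences of -0.10 (95% interval -0.24 to 0.03) and -0.03 (-0.22 to 0.16). Ctsb had 119, 102 and 105 FPKM in dTgDox against 112 to 128, with 2 of the 3 below all 12 others. Lgmn, the asparaginyl endopeptidase legumain, Ctsa, a carboxypeptidase that also protects Neu1 and Glb1, Ctsf, the cysteine protease cathepsin F, and Tpp1 had differences of 0.01, 0.00, 0.00 and -0.04. Their 95% intervals all lay between -0.20 and 0.21.

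Of the 8 glycosidases Hexa alone rose (12.5%, beside 9.65% of all genes), and the median difference was -0.03. Hexa encodes the alpha subunit of the hexosaminidase that degrades ganglioside (chromosome 9, 59539540 to 59565109). It ran from 21.2 to 25.1 FPKM in Ct (median 23.1) and from 21.8 to 25.6 in dTg (median 23.7), and had 40.2, 26.2 and 28.4 FPKM in dTgDox. Each dTgDox library was above all 12, replicate 2 by little. The difference was 0.38 (SE 0.10) with a limma adjusted p of 0.018. It shrank to 0.20 with an adjusted p of 0.10 without replicate 1.

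Gaa, the acid alpha-glucosidase that degrades glycogen, had 102, 90.8 and 111 FPKM in dTgDox against 74.9 to 107 elsewhere, a log2 difference of 0.23 at an adjusted p of 0.13. The 107 FPKM came from Ct replicate 4. Without that library Gaa passed against both dTg (0.23, adjusted p 0.0499) and Ct (0.34, adjusted p 0.0081). Gusb, the beta-glucuronidase, split the dTgDox libraries, with 13.4 and 11.0 FPKM in replicates 1 and 3 and 4.94 in replicate 2, against 7.23 to 8.39 in the 12 others. Its difference was 0.18 (adjusted p 0.57), and without replicate 2 it was 0.59 (adjusted p 0.00052). The remaining 5 had differences of 0.00 for Man2b1, an alpha-mannosidase, -0.06 for Gla, the alpha-galactosidase, -0.07 for Glb1, the beta-galactosidase, -0.08 for Manba and -0.16 for Neu1, a sialidase, and none passed.

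**Figure D2:**
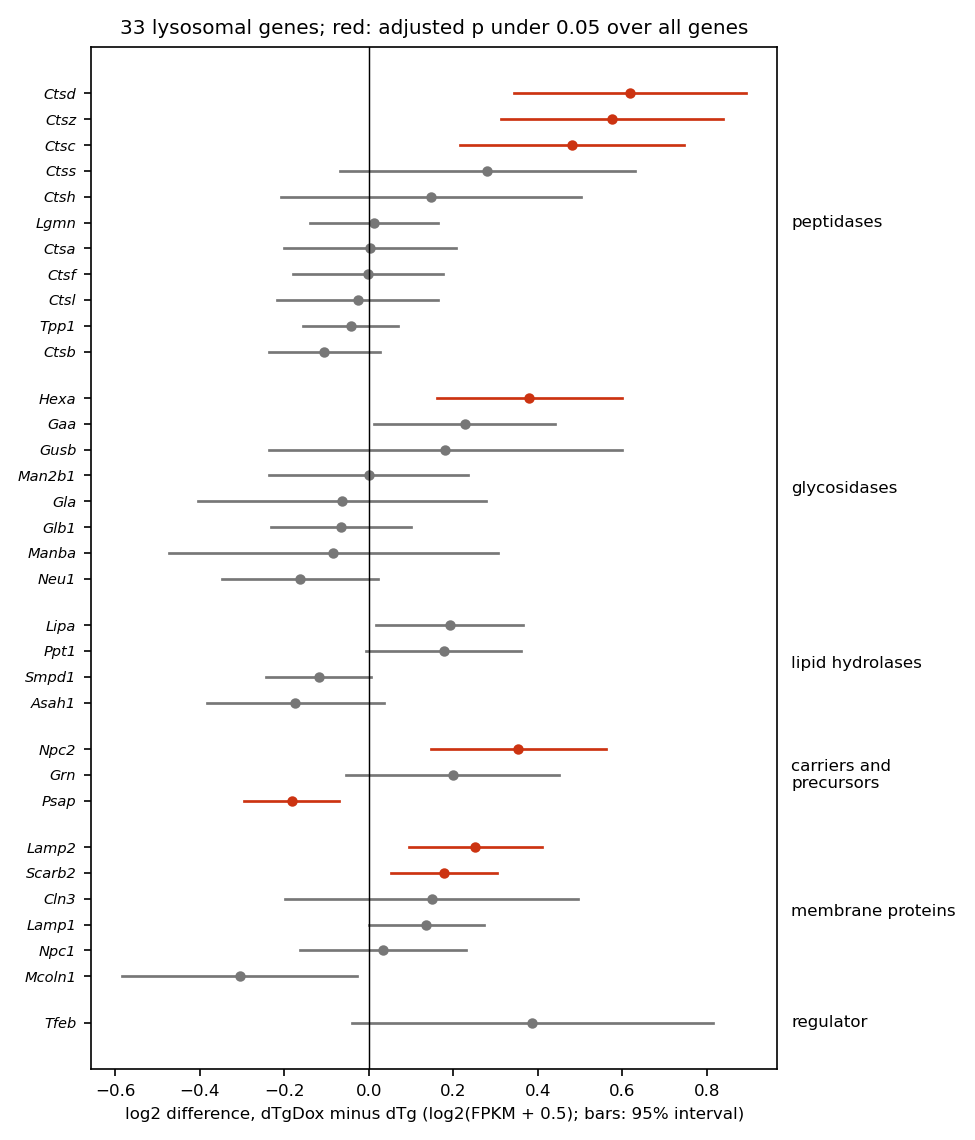
Difference of dTgDox from dTg on the log2(FPKM + 0.5) scale (horizontal axis) for each of the 33 lysosomal genes, grouped by role, with the 95% interval as a bar. Red marks a limma adjusted p under 0.05: 7 genes lie to the right of 0 and Psap to the left, and the widest intervals belong to Tfeb, Gusb and Manba.

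None of the 4 lipid hydrolases passed limma, and 1 had an unadjusted p under 0.05. Lipa, the acid lipase of cholesteryl esters, had 8.84, 7.78 and 8.47 FPKM in dTgDox against 6.41 to 8.58 elsewhere, a log2 difference of 0.19 at an adjusted p of 0.12. Ppt1, which removes palmitate from proteins, had 56.5, 65.7 and 66.2 FPKM against 48.6 to 62.7 and a difference of 0.18 (adjusted p 0.17). Smpd1, the acid sphingomyelinase, and Asah1, the acid ceramidase, lay on the other side of 0, at -0.12 and -0.17 (adjusted p 0.18 and 0.24). The 95% intervals of Smpd1 and Asah1 ended at 0.01 and 0.03 above 0.

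The carriers and precursors moved in both directions. Npc2, which hands cholesterol to Npc1 (chromosome 12, 84754562 to 84773152), ran from 13.7 to 17.8 FPKM in Ct (median 15.9) and from 13.5 to 17.6 in dTg (median 16.2). In dTgDox it had 21.6, 18.3 and 20.5 FPKM, above all 12 others, a difference of 0.35 (SE 0.10) with a limma adjusted p of 0.019. Without replicate 1 the adjusted p was 0.10. Psap (chromosome 10, 60277627 to 60302597) ran from 588 to 672 FPKM in Ct (median 602) and from 556 to 632 in dTg (median 598), and had 531, 529 and 522 FPKM in dTgDox.

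Psap was the gene of the 33 in which all 3 dTgDox libraries lay below all 12 others, beside 8.06% of all genes that did so. Its 3 values were close together, with an SD of 5.06 FPKM against 29.1 in dTg. The difference was -0.18 (SE 0.05) with a limma adjusted p of 0.026 against dTg, and -0.22 with an adjusted p of 0.010 against Ct. Leaving out any 1 of the dTgDox libraries lost the call against dTg and kept that against Ct, at adjusted p up to 0.048. Grn, the precursor of the granulins, whose loss causes lysosomal disease and dementia, had 41.6, 33.4 and 29.6 FPKM against 26.0 to 35.5, a log2 difference of 0.20 at an adjusted p of 0.27.

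Of the 6 membrane proteins 2 rose (33.3%, beside 9.65% of all genes). Lamp2, a membrane glycoprotein also needed for chaperone-mediated autophagy (chromosome X, 38401357 to 38456454), ran from 34.6 to 38.9 FPKM in Ct (median 37.4) and from 34.0 to 38.8 in dTg (median 36.8). In dTgDox it had 43.7, 38.3 and 49.8 FPKM, with replicate 2 inside the range of the others. The difference was 0.25 (SE 0.07) with a limma adjusted p of 0.027, and quantile normalization gave 0.16 with an adjusted p of 0.19. Of 26 alternative settings 6 lost the Lamp2 call against dTg and 10 lost that against Ct. Scarb2, the receptor that carries glucocerebrosidase to the lysosome (chromosome 5, 92441314 to 92506833), ran from 30.4 to 36.3 FPKM in Ct (median 33.3) and from 32.2 to 35.3 in dTg (median 33.2). Its 3 dTgDox values, 37.7, 37.4 and 38.1, lay just above all of these. With a difference of 0.18 (SE 0.06) and an adjusted p of 0.048 the call was marginal, and 17 of 26 alternative settings lost it. Against Ct 16 of the 26 lost the Scarb2 call.

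Lamp1 had 140, 145 and 145 FPKM in dTgDox against 112 to 139 in the 12 others. These 3 lay above all the others, yet the difference of 0.14 did not pass (95% interval 0.00 to 0.27, adjusted p 0.16). In all, 6 of the 33 genes (18.2%) had every dTgDox library above every other library, beside 8.06% of all genes: Ctsd, Ctsz, Hexa, Npc2, Lamp1 and Scarb2. Cln3, a membrane protein lost in juvenile Batten disease, and Npc1, the cholesterol exporter, had differences of 0.15 and 0.03. Mcoln1, the calcium channel TRPML1, had 43.2, 44.5 and 38.5 FPKM against 42.0 to 62.9 and the lowest difference of the 33, -0.31 (95% interval -0.58 to -0.03, adjusted p 0.12).

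Tfeb, which drives transcription of lysosomal genes once it enters the nucleus, had 4.38, 6.10 and 6.08 FPKM in dTgDox against 2.60 to 5.39 in the other libraries. Replicates 2 and 3 lay above all 12 and replicate 1 among them. The difference was 0.39 with a 95% interval of -0.04 to 0.81 and an adjusted p of 0.20. The 5 genes with the 8-base E-box did not move as 1 group, with Ctsd at 0.62, Cln3 at 0.15, Ctsa at 0.00, Gla at -0.06 and Mcoln1 at -0.31.

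**Figure D3:**
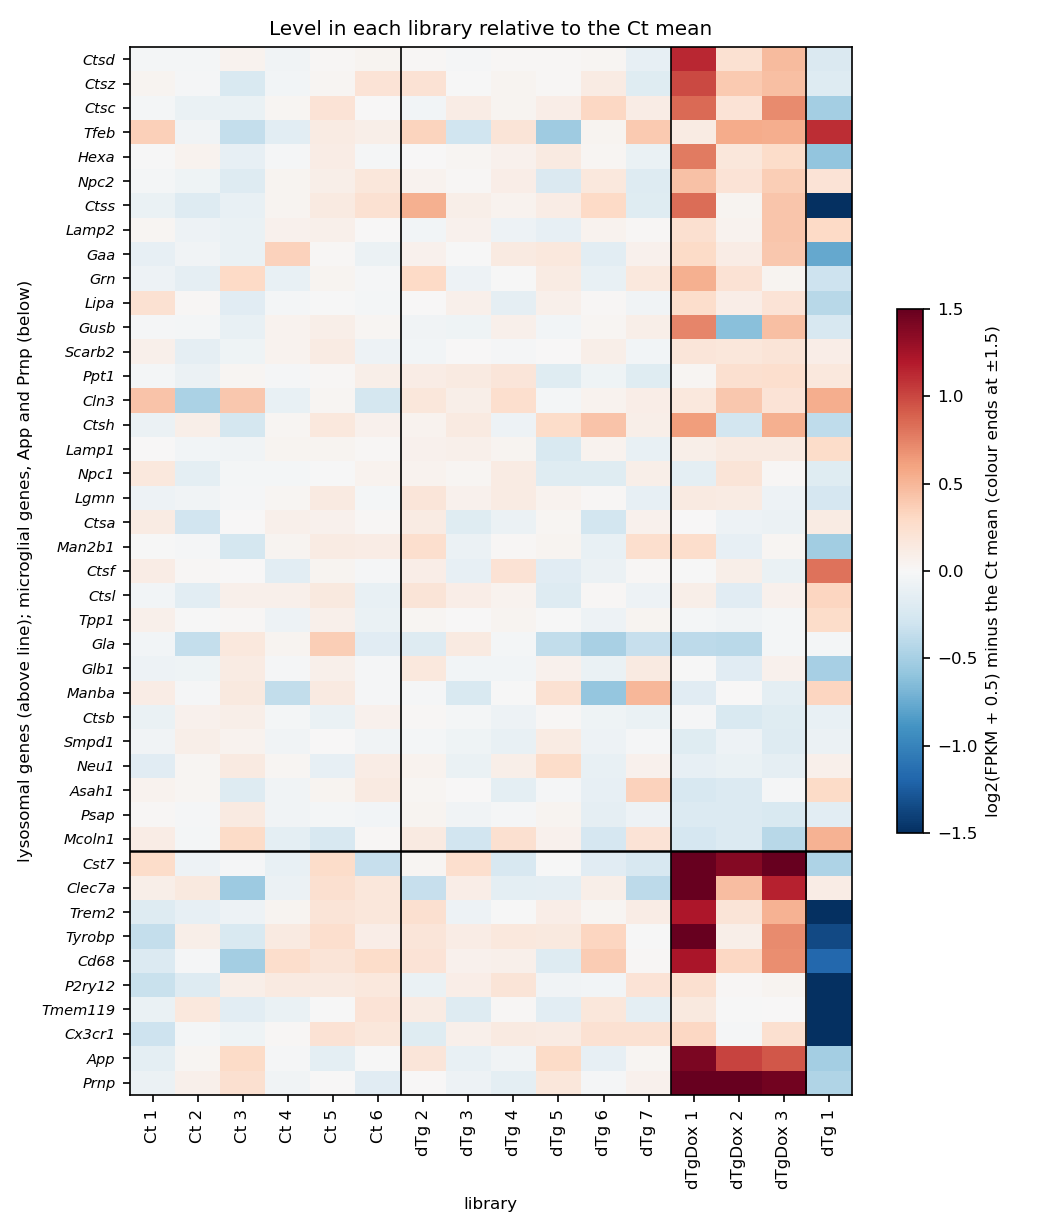
Level of each gene in each library on the log2(FPKM + 0.5) scale minus the Ct mean (red higher, blue lower, colour ending at 1.5 either side), with the 33 lysosomal genes above the line and microglial genes, App and Prnp below it. App and Prnp are red in all 3 dTgDox libraries, whereas most lysosomal rows are pale there, and the red cells of the lysosomal genes gather in dTgDox replicate 1.

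The other genes of the lysosome did not move in 1 direction either. Of 29 further hydrolases tested 4 rose (13.8%, beside 9.65% of all genes) and 6 fell (20.7%, beside 9.22%), with a median of 0.02. Siae, a sialic acid esterase, fell by 0.61 and Prcp, a carboxypeptidase, by 0.67, while Ggh, which trims folate, rose by 0.54 and Ctsk, cathepsin K, fell by 0.55 (limma adjusted p 0.00027, 0.00057, 0.0036 and 0.013). Of 20 further membrane proteins 3 rose (15%) and 2 fell (10%). Cd68, a glycoprotein of phagocyte lysosomes, rose by 0.66, the tetraspanin Cd63 by 0.50 and Laptm4a by 0.31, and the peptide transporter Abcb9 fell by 0.67. In Cd68 the 3 values were 18.6, 9.60 and 12.8 FPKM against 5.25 to 10.1, the same order as in Ctsd.

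The proton pump that acidifies the lysosome held 1 gene that rose and 1 that fell among 18, which is 5.56% each way and under the 9.65% and 9.22% of all genes. Atp6v0c, its proteolipid ring subunit, fell by 0.33 and Atp6v0e rose by 0.32. Among 22 genes of sorting and delivery 2 rose (9.09%) and 1 fell (4.55%), also no more than among all genes. These were the mannose 6-phosphate receptor M6pr by 0.23 and the retromer subunit Vps26b by 0.20, which rose, and Vps33a, which fell by 0.36. Among 18 genes that pass signals from the lysosome to the nucleus through mTORC1, 1 rose (5.56%) and 4 fell (22.2%, beside 9.22% of all genes), the 4 being Lamtor3, Rragd, Rptor and Tsc1 at -0.23, -0.57, -0.24 and -0.28. Tfe3 and Mitf, relatives of Tfeb, had differences of -0.10 and -0.01 that did not pass. Of 5 cystatin family or related protease inhibitors 2 rose against dTg (40%, beside 9.65% of all genes) and 1 against Ct (20%, beside 9.86%). Cst7, cystatin F, an inhibitor of cathepsins that is also in the list of microglia at plaques, rose by 2.94 against dTg. It had 0.0445 to 0.335 FPKM in the 12 libraries of Ct and dTg, and 13.1, 1.29 and 4.86 in dTgDox. Cst7 thus met the filter of 0.5 FPKM in 3 libraries only through dTgDox, and no call but higher was possible for it. It is counted in both lists all the same. The secreted Cst3 rose by 0.49 against dTg, and its dTgDox libraries did not all lie above the 12 others.

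App and Prnp, the prion protein gene, rose in dTgDox, with larger differences than any of the 33 lysosomal genes. App had 1268, 961 and 904 FPKM in dTgDox against 428 to 581 in the 12 others, a difference of 1.08 (SE 0.12) with a limma adjusted p of 2.8e-05. Prnp had 1688, 1208 and 1095 FPKM against 356 to 473, a log2 difference of 1.70 at an adjusted p of 3.8e-07. The largest difference among the lysosomal genes was 0.62, and their median was 0.14. The difference between the 33 genes and App was itself not tested.

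Microglial genes differed by list. Of 18 genes of resting microglia 3 rose (16.7%, beside 9.65% of all genes) and 0 fell (beside 9.22%), with a median of 0.07. Differences ran from -0.46 to 0.56, with 12 of the 18 above 0. Against Ct 4 rose (22.2%, beside 9.86% of all genes). P2ry12, Tmem119 and Cx3cr1, which were to be named whatever their result, had differences of 0.05, 0.08 and 0.08 that did not pass. The 3 that rose were others of the list, and none of the list was at 0. The list summed to 397, 294 and 326 FPKM in dTgDox replicates 1, 2 and 3 against 266 to 339 in Ct and 298 to 334 in dTg. Of 19 genes of microglia at plaques that were found, 16 passed the filter and were tested. Of these 7 rose (43.8%, beside 9.65% of all genes) and 0 fell (beside 9.22%), with a median of 0.57. Cst7 is 1 of the 7 and passed the filter only through its dTgDox values. Trem2, the lipid receptor of these cells, rose by 0.57 (adjusted p 0.023) with 25.5, 12.3 and 15.5 FPKM against 9.28 to 12.7. Its partner Tyrobp had 84.6, 30.0 and 46.6 FPKM against 22.0 to 35.4 and a log2 difference of 0.64 at an adjusted p of 0.065 (0.79 and 0.025 against Ct).

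The astrocyte filament gene Gfap also rose, by 2.55, with 276, 127 and 204 FPKM against 19.0 to 49.0. Gfap belongs to a list of 8 reactive astrocyte genes, with differences from -0.50 to 2.55. Of these 3 rose (37.5%, beside 9.65% of all genes) and 0 fell. Of 8 general astrocyte genes 2 rose (25%) and 1 fell (12.5%, beside 9.22% of all genes). The 6 genes of border macrophages held 0 that passed limma and 0 at an unadjusted p under 0.05. The part of microglial content in the lysosomal differences was not tested, and none of the list of resting microglia is among the 33 genes.

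**Figure D4:**
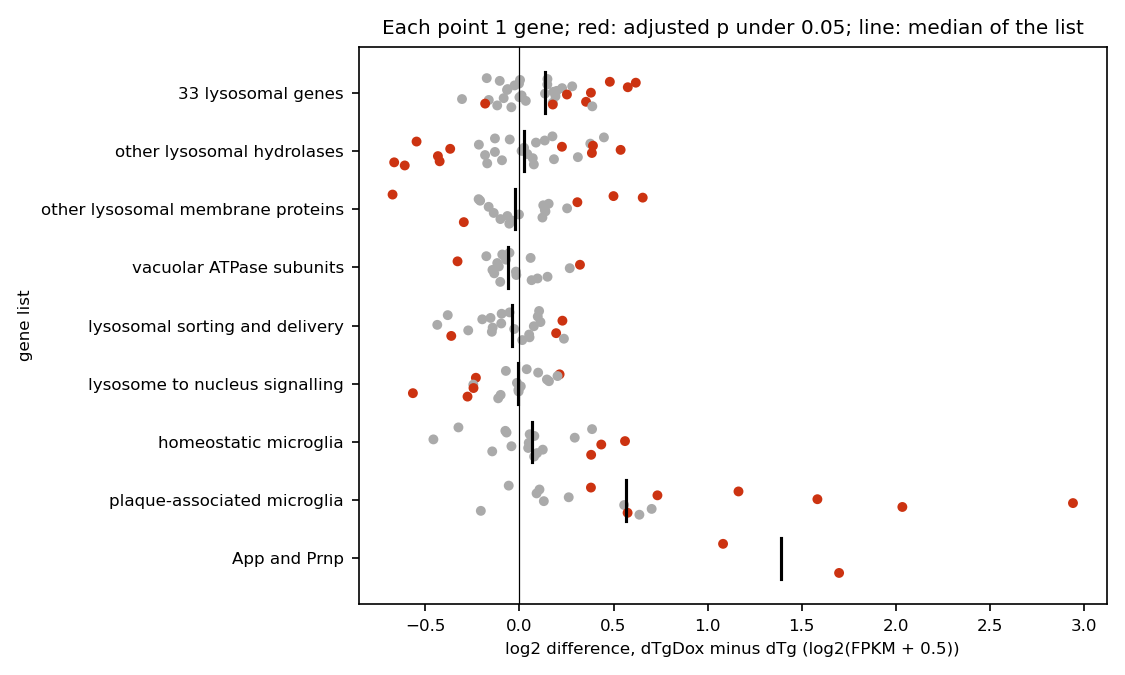
Difference of dTgDox from dTg on the log2(FPKM + 0.5) scale (horizontal axis) for each tested gene of 9 lists (vertical axis), red for a limma adjusted p under 0.05, with the list's median as a line. The median is 0.14 for the 33 lysosomal genes, 0.07 for resting microglia and 0.57 for microglia at plaques, and both App and Prnp lie to the right of each of the 33.

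Whether lysosomal levels went with microglial or App levels apart from dTgDox was asked across the 12 libraries of Ct and dTg. The mean log2 level of the 18 resting microglia genes ran from 3.64 to 3.97 there. Of 33 correlations with it 2 passed Benjamini-Hochberg adjustment over the 33, and 3 had an unadjusted permutation p under 0.05. Ctsc had a Pearson r of 0.83 (adjusted permutation p 0.031) and a Spearman rho of 0.76 (adjusted permutation p 0.095). Ctsh had an r of 0.78 (adjusted permutation p 0.045) and a rho of 0.80 (adjusted permutation p 0.082). Within the groups r was 0.87 in Ct and 0.75 in dTg for Ctsc, and 0.75 and 0.84 for Ctsh. Without Ct replicates 5 and 1, the 2 libraries farthest from the median, r was 0.83 for both and the adjusted permutation p 0.070, so neither passed with 10 libraries.

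Hexa had the next highest r, 0.66 (adjusted permutation p 0.21), and Ctsd and Ctsz, which rose furthest in dTgDox, had 0.29 and 0.45 (adjusted permutation p 0.87 and 0.55). The median r over the 33 was 0.01, with a range from -0.56 for Mcoln1 to 0.83.

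**Figure D5:**
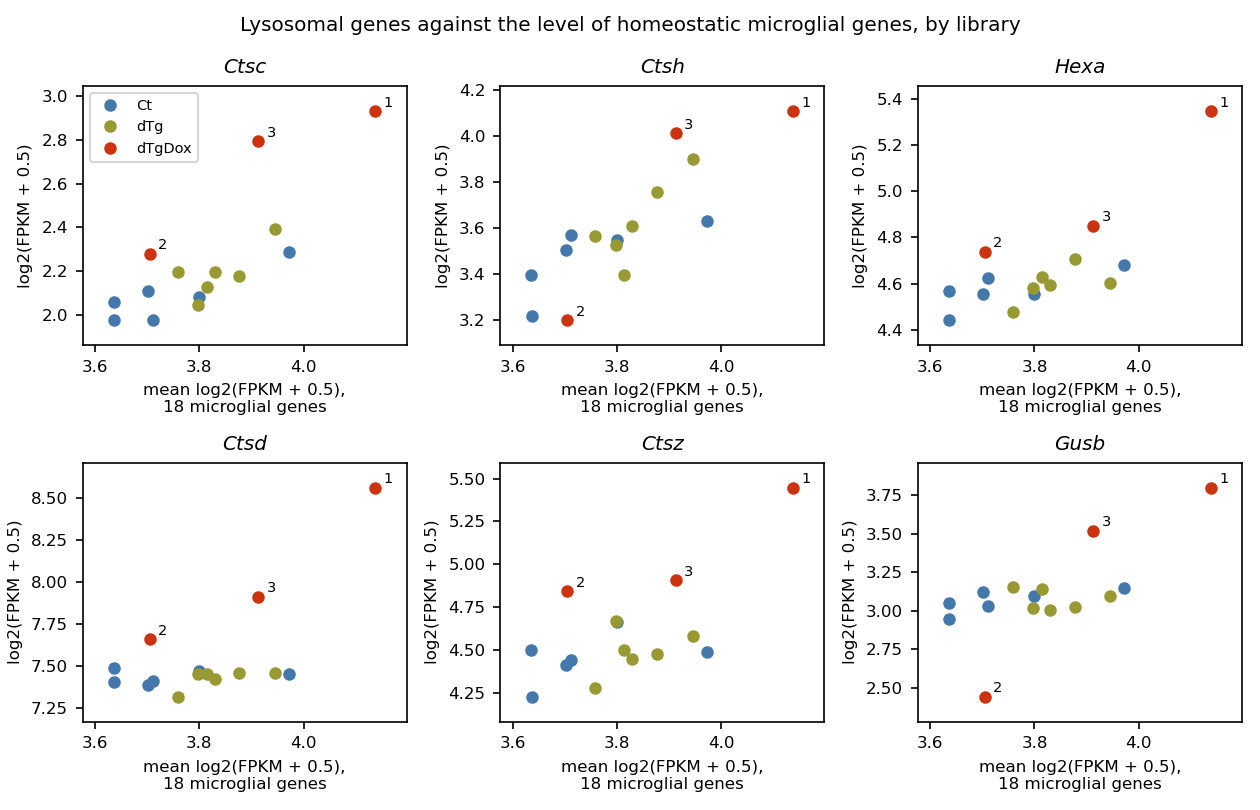
Level of 6 lysosomal genes on the log2(FPKM + 0.5) scale (vertical axis) against the mean level of 18 resting microglia genes on the same scale (horizontal axis), 1 point per library, coloured by group, with dTgDox replicates numbered. Ctsc and Ctsh climb with the microglial level over Ct and dTg, Ctsd is flat there, and Gusb of dTgDox replicate 2 lies below all other points.

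Against App, 2 of 33 correlations passed in the same 12 libraries, and 9 had an unadjusted permutation p under 0.05. Neu1 had an r of 0.84 (adjusted permutation p 0.012) and a rho of 0.86 (adjusted permutation p 0.023), with r of 0.83 in Ct and 0.84 in dTg. Lamp2 had an r of -0.78 (adjusted permutation p 0.047) and a rho of -0.76 (adjusted permutation p 0.10), with -0.80 and -0.75 in the groups. Without dTg replicate 5 and Ct replicate 3 the r of Neu1 was 0.72 and that of Lamp2 -0.55 (adjusted permutation p 0.31 and 0.44), so neither passed with those 10 libraries. In dTgDox, where App was highest, Neu1 had 20.3, 20.6 and 20.2 FPKM against 19.6 to 26.8, and Lamp2 lay above its mean in the other groups. The median r with App over the 33 genes was -0.145. dTg replicate 5 and Ct replicate 3 also had the lowest oligodendrocyte sums of the 12 libraries, 976 and 1081 FPKM. The part of tissue content in these correlations was not tested.

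dTg replicate 1, the library deposited under 2 labels, stood apart in its tissue markers. Its 8 cerebellar genes summed to 3011 FPKM against 22.0 to 54.5 in the other 15 libraries, and its resting microglia genes to 76.1 FPKM. dTg replicate 1 lay above all 15 in 7 of the 33 genes and below all 15 in 11, which is 21.2% and 33.3% beside 28.5% and 26.3% of all genes. Tfeb was highest in it, at 9.18 FPKM or 2.20 times the dTg mean, followed by Ctsf at 45.6 FPKM or 1.77 times. Ctss was lowest, at 17.3 FPKM or 0.283 of the dTg mean, followed by Gaa at 49.1 FPKM or 0.568.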

How the data were processed

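Per the labels' protocols, RNA was taken from dissected frontal cortex, polyadenylated single-end libraries were made with a NEBNext kit and sequenced on a NextSeq instrument using 2 flow cells, to which libraries are not assigned in the labels. The submitters' processing notes name TopHat2 and DESeq. Which quantifier, genome build, annotation and strand setting were used is not given in the sources used here. A deposited file holds 1 value per gene, which the authors gave in a form that behaves as FPKM, and depth was estimated from the step of 1 read in single-exon genes, so no counting interval was computed. Exons of 12 of the 33 genes overlap those of another gene in GENCODE M21 (GRCm38), Ctsd over 808 bases on its own strand, and how such reads were assigned is unknown.

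Symbols and coordinates come from GENCODE M21. limma 3.58.1 (R 4.3.3) was fitted to log2(FPKM + 0.5) of 15 libraries in 3 groups, for the 19064 genes that reached 0.5 FPKM in 3 or more of them, with moderation by trend and robust to outliers. All 33 genes passed the filter. Tests were two-sided, with Benjamini-Hochberg adjustment over the whole table and 0.05 as threshold. Differences are on the log2(FPKM + 0.5) scale, which understates changes of low genes. Correlations used 100000 permutations. The steps were tested on simulated data. For the limma fit the simulated spread of a gene was the same in all groups, so the effect of an unequal spread in dTgDox was not tested. The 33 genes and all lists were chosen with earlier results of these data known. All 33 genes were to be named, as were App, Prnp, Gfap, Trem2, Tyrobp, Cst7, P2ry12, Tmem119 and Cx3cr1. Of other lists, up to 4 passing genes with the smallest p were to be named, which was not done for every list. Promoter and microRNA sequences are from RefSeq on GRCm38.p6. The 3'UTR sequences searched for miR-211 sites are from GENCODE M21 transcripts, the longest for each gene. There were 26 alternatives. Each changed 1 choice, except that limma's trend and robust settings were switched off together and Ct replicate 2 and dTg replicate 7 were left out together in one of them.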

Additional observations from a re-analysis of the deposited data

Results flagged for a closer look

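Among 66 sets of 6 libraries (33 genes in Ct and in dTg), 5 held a library far from the others by Dixon's criterion, where chance marks about 1 in 20. Ctsa was lowest in Ct replicate 2, at 49.4 FPKM against 60.5 to 66.0 in the other Ct libraries. Ctsd was lowest in dTg replicate 7, at 159 FPKM against 171 to 176. Gaa was highest in Ct replicate 4, at 107 FPKM against 76.5 to 84.9, and Manba was lowest in the same library, at 3.07 FPKM against 4.05 to 4.60. Asah1 was highest in dTg replicate 7, at 40.3 FPKM against 28.5 to 32.2.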

How the results depend on the processing

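Of the 16 called differences (8 genes in each dTgDox comparison) under 26 alternatives, 346 values kept their direction and call, 70 kept their direction and lost the call, and none changed sign. Ctsz was called under every alternative and Ctsd under all but the replicate block against dTg. In dTgDox against dTg the counts of genes and of lysosomal genes called were 1562 and 1 with the replicate block, and 1537 and 3 with dTg replicate 1 added. Leaving out 1 library gave 2077 to 3715 genes and 2 to 8 lysosomal genes, lowest without dTgDox replicate 1 (Ctsd and Ctsz), then 2155 genes and 3 lysosomal genes without replicate 3. Against Ct the gene count was 2394 with the block, and with dTg replicate 1 added it was 1504, with 4 lysosomal genes. Leaving out 1 library gave 2229 to 3872 genes and 4 to 10 lysosomal genes, with 2273 and 5 without dTgDox replicate 3; without replicate 2 Ctsh, Gusb and Ctss were also called there, and Ctsh and Gusb against dTg. In dTg against Ct 1 gene was called with a pseudocount of 0.1, and 0 to 1 when 1 library was left out (1 without dTg replicate 3 or 6), never a lysosomal gene. With the 2 farthest libraries left out, 0 correlations passed against the microglial level and 0 against App. The cause of these changes was not tested. The replicate numbers did not pair the samples: same-numbered libraries had correlations of -0.188 to 0.08 in their deviations from group means, and 1 of 14 libraries correlated best with its own number.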

Other observations

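The 3 dTgDox libraries had a recurring order in these genes, seen after the values were known and given as a description. Replicate 1 was highest, replicate 3 in the middle and replicate 2 lowest in 13 of the 33 genes (39.4%), beside 15.5% of all genes tested. They were Ctsb, Ctsc, Ctsd, Ctsh, Ctsl, Ctss, Ctsz, Gusb, Hexa, Lipa, Man2b1, Npc2 and Tpp1, of which 8 are peptidases, and 5 of the 7 genes that rose were among them. The same order held in 12 of 18 resting microglia genes (66.7%) and 11 of 16 genes of microglia at plaques (68.8%). It also held in 3 of 12 genes of hippocampal neurons (25%), and in 0 of 8 oligodendrocyte genes. App and Prnp had another order, with replicate 1 highest and replicate 2 above replicate 3. Of the 33 genes 4 shared it (Ctsa, Grn, Lgmn and Psap), which is 12.1% beside 14.6% of all genes. The mean log2 level of the genes of microglia at plaques was 3.65, 2.52 and 3.04 in dTgDox replicates 1, 2 and 3, against 2.08 to 2.54 in Ct and dTg. With 3 libraries this order cannot be tested, and the libraries behind it are the same for every gene.

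Gusb and Ctsh were the 2 genes of the 33 in which dTgDox libraries lay on both sides of all 12 others. Gusb in replicate 2 was 4.94 FPKM against a lowest value of 7.23 in Ct and dTg, and replicates 1 and 3, at 13.4 and 11.0, were above the highest, 8.39. In Ctsh replicate 2, at 8.68 FPKM, was only just under the lowest value, 8.80. The cause was not tested.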
